A study of Mus musculus with 4 samples.

Results

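Respiratory complex I, the NADH dehydrogenase of the inner mitochondrial membrane, was followed through its genes in microglia of 20 mice. Members were all genes whose symbol begins with Nduf followed by a, b, c, s or v, or with mt-Nd, which gave 54 of the 19737 genes in the deposited count matrix. They comprised 37 subunits encoded in the nucleus, 7 subunits encoded in mitochondrial DNA and 8 assembly factors (Ndufaf genes). Ndufa4, whose protein belongs to cytochrome c oxidase (complex IV) despite its name, and its relative Ndufa4l2 were kept apart. The subunit Ndufb1 is listed under the symbol Ndufb1-ps, which the annotation used here classes as a long non-coding RNA from a bidirectional promoter and not as protein coding, unlike every other member. Of the 54 genes, 53 passed the filter on low counts. The exception, Ndufa4l2, had 0 to 4 UMIs (unique molecular identifiers, 1 per captured transcript) in each mouse.

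The mice carried a human sequence in the transferrin receptor, recorded in the annotation as hTfR KI HOM, and were killed 24 h after an intravenous dose of 10 mg/kg. There were 5 groups of 4 mice: without amyloid (WT;TfRmu/hu, here WT mice), 1 group received ATV:ISO and 1 received ATV:4D9, and with amyloid (AppSAA;TfRmu/hu, here AppSAA mice), there were groups for ATV:ISO, for 4D9 alone and for ATV:4D9. AppSAA is a knock-in model of amyloid deposition in which the mouse App gene carries a humanised Aβ sequence and disease mutations, 4D9 is an antibody that activates the microglial receptor TREM2, and ATV is an antibody transport vehicle whose modified Fc binds the human transferrin receptor. The isotype arm, deposited as ATV-DNP02, was read as ATV:ISO. All mice were recorded as male except 1 WT mouse given ATV:ISO (pool 4), recorded as female, and the entry for age (8 months) does not settle whether it covers the WT mice. Cells were sorted for CD11b, and the texts differ on whether CD45 was used and on whether hippocampus was taken with cortex. The 4 sequencing pools each held 1 mouse of every group.

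Complex I takes electrons from NADH and passes them along iron-sulfur clusters to ubiquinone, and uses the energy released to pump protons. Its peripheral arm holds the N module, where NADH binds, and the Q module, where quinone is reduced. The membrane arm, with proximal and distal pump modules, is built around the 7 mitochondrially encoded proteins. The 7 nuclear core subunits, Ndufv1 and Ndufs7 among them, include those that carry the redox centres, the remaining nuclear subunits are accessory, and the assembly factors help build the complex and then leave it. Nuclear subunits are transcribed gene by gene, from promoters many of which are bound by NRF1, YY1 and ETS factors, whereas the mitochondrial subunits are cut from long transcripts of the mitochondrial genome.

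Sequence was available on both sides of this division. Promoter windows from RefSeq (GRCm38.p6, 250 bases before to 50 bases after each transcript start) were found for 40 members. Of the 32 nuclear subunits with a window, 8 (25%) held the NRF1 motif GCGCANGCG on either strand in any window of the gene, against 7.03% of all 27025 genes with a window. The YY1 core ATGGCG was found in 11 of 32 (34.4%), against 10.2% of all genes, and its letters can also be the start of a coding sequence. The ETS motif CCGGAAG was found in 4 of 32 (12.5%, against 9.93%), the E-box CACGTG in 2 of 32 (6.25%, against 8.09%) and the estrogen-related receptor motif AAGGTCA in 3 of 32 (9.38%, against 5.38%). Among the 7 assembly factors with a window, 2 (28.6%) held the NRF1 motif, 2 the YY1 core and 2 the ETS motif. A match is a run of letters and not a measured binding site. The windows of Ndufs6, Ndufa12 and Ndufa1 are shown because values of these genes follow, and that of Ndufb4 because it held the most matches (4), with motif matches in capitals and each written on the gene's own strand.
Ndufs6, chr13:73328433-73328732, minus strand, with an NRF1 and a YY1 match: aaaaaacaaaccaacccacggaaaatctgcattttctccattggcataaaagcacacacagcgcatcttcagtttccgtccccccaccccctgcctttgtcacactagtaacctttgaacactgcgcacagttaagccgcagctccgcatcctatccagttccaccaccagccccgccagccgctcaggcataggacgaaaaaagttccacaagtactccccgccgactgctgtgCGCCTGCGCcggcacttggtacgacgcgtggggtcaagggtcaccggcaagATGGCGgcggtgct
Ndufb4, chr16:37654319-37654618, minus strand, with 3 NRF1 matches and 1 estrogen-related receptor match: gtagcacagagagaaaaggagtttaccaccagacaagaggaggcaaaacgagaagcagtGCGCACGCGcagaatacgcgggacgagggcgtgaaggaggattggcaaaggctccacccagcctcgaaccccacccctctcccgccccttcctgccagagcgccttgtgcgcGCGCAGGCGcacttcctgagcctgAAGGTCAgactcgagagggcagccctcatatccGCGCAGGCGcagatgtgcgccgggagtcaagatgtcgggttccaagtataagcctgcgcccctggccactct
Ndufa12, chr10:94198785-94199084, plus strand, without a match: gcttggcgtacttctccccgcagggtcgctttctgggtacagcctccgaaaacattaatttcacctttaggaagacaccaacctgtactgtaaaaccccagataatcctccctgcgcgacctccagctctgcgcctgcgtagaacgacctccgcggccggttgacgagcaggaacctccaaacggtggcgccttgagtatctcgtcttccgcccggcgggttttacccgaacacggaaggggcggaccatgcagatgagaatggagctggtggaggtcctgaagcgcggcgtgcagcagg
Ndufa1, chrX:37191189-37191488, minus strand, with a YY1 match: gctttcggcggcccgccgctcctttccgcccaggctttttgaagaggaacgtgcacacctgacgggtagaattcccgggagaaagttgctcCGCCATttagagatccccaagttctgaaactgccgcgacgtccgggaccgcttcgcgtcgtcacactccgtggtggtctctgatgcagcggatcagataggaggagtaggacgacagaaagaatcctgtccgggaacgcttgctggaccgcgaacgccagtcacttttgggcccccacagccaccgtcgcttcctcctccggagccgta

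On the mitochondrial side, mt-Nd4l and mt-Nd4 lie on 1 messenger RNA and overlap, so their UMIs cannot be told apart as separate transcripts. The mt-Nd4l reading frame (GENCODE, chrM:9877-10173, plus strand, 297 bases) is shown because this gene had a call of its own in the comparison of the antibody effect between genotypes. Its last 7 bases, in capitals, are also the first bases of mt-Nd4 (chrM:10167-11544).
mt-Nd4l: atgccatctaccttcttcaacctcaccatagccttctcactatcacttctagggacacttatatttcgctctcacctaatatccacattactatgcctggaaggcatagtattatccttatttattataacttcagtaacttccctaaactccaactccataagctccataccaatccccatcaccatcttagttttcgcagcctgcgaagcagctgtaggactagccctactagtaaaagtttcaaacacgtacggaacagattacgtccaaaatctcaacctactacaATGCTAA

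The matrix held 74758 cells, with 2193 to 6126 cells and 17150296 to 102446549 UMIs in each mouse. Levels are UMIs of a gene summed over the cells of a mouse and divided by all UMIs of that mouse (CPM, counts per 1000000 UMIs), and were not compared between genes. All 6 microglial markers were present (summed level 21917 to 32580 CPM), with markers of neurons, lymphocytes and monocytes at no more than 7.41 CPM, of border macrophages, neutrophils and oligodendrocytes at no more than 44.4 CPM, and of red cells at no more than 1.02 CPM except in 1 AppSAA mouse given ATV:4D9 (371 CPM). Endothelial markers moved with the groups, at 18.3 to 24.4 CPM in WT mice given ATV:ISO and 9.49 to 12.9 CPM with ATV:4D9, and at 37.5 to 52.2 CPM and 13.2 to 25.9 CPM in AppSAA mice given ATV:ISO and ATV:4D9. Cells given ATV:4D9 held more UMIs, with a median per mouse of 13479 to 17290 in WT mice against 6859 to 8174 with ATV:ISO, and of 13560 to 16475 against 8445 to 9884 in AppSAA mice. The deposited clusters also shifted with the groups, as given further on. Cycling markers stood at 289 to 340 CPM in WT mice given ATV:4D9, against 17.4 to 44.1 CPM with ATV:ISO, and at 228 to 299 against 38.1 to 49.98 CPM in AppSAA mice, and S phase markers were apart in the same direction in both genotypes. Interferon markers were at 257 to 537 against 62.4 to 78.4 CPM in WT mice and at 721 to 1292 against 91.8 to 113 CPM in AppSAA mice. Homeostatic markers were lower with ATV:4D9, at 4108 to 5252 against 8331 to 10013 CPM in WT mice and 3108 to 4452 against 4724 to 6322 CPM in AppSAA mice, and immediate early markers were lower and apart in both genotypes. Disease-associated markers were at 3805 to 8302 against 9929 to 12197 CPM in AppSAA mice and overlapped in WT mice. In WT mice given ATV:4D9 and ATV:ISO, astrocyte markers were at 59.8 to 74.5 and 135 to 164 CPM, oligodendrocyte markers at 14.7 to 26.6 and 27.8 to 40.5 CPM, neuronal markers at 0.479 to 0.856 and 1.12 to 1.77 CPM, and the microglial markers at 22883 to 25492 and 29982 to 32580 CPM, each wholly apart. The part of these differences in the results on complex I was not tested beyond the values within clusters given below. Summed mitochondrially encoded subunits were higher in pools 3 and 4 than in pools 1 and 2 in all 5 groups (1.32 to 1.58 times), whereas summed nuclear subunits were lower there (0.883 to 0.949 times). Of the single mt-Nd genes, mt-Nd4l had both mice of pools 3 and 4 above those of pools 1 and 2 in 0 of 5 groups, mt-Nd5 in 3 and the other 5 genes in all 5.

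Summed over each class, nuclear subunits separated the ATV:4D9 mice from the others. In WT mice given ATV:ISO the 37 nuclear subunits stood at 4252, 4313, 3868 and 3974 CPM in pools 1 to 4 (mean 4102 ± 214 (SD, n = 4)), and with ATV:4D9 at 6130.2, 5785, 5575 and 5732 CPM (5806 ± 234). AppSAA mice had 4801, 5066, 4422 and 4504 CPM with ATV:ISO (4698 ± 294), 4995, 5041, 4388 and 4469 CPM with 4D9 (4723 ± 342), and 6155, 5771, 5388 and 5429 CPM with ATV:4D9 (5686 ± 357). Both groups given ATV:4D9 lay wholly above the 3 groups that had not received it, and AppSAA mice given ATV:ISO lay wholly above WT mice given ATV:ISO.

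The 7 mitochondrially encoded subunits were at 3071, 3188, 3984 and 4309 CPM in WT mice given ATV:ISO (3638 ± 603 (SD, n = 4)) and at 4093, 3980, 5139.7 and 6280.1 CPM with ATV:4D9 (4873 ± 1074). In AppSAA mice they were at 4545 ± 840.1 CPM with ATV:ISO, 4504 ± 989 CPM with 4D9 and 4703 ± 1261 CPM with ATV:4D9, each over 4 mice. All of these groups overlapped, with the 2 highest mice of every group in pools 3 and 4. The 8 assembly factors, at 215 ± 15.0 CPM in WT mice given ATV:ISO and 254 ± 11.0 CPM with ATV:4D9, separated those groups, and in AppSAA mice they were at 193 ± 13.3, 193 ± 11.4 and 227 ± 13.5 CPM with ATV:ISO, 4D9 and ATV:4D9. The number of mitochondrially encoded UMIs per nuclear UMI of complex I averaged 0.894 and 0.843 in WT mice (ATV:ISO and ATV:4D9) and 0.977, 0.967 and 0.839 in AppSAA mice (ATV:ISO, 4D9 and ATV:4D9).

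**Figure D1:**
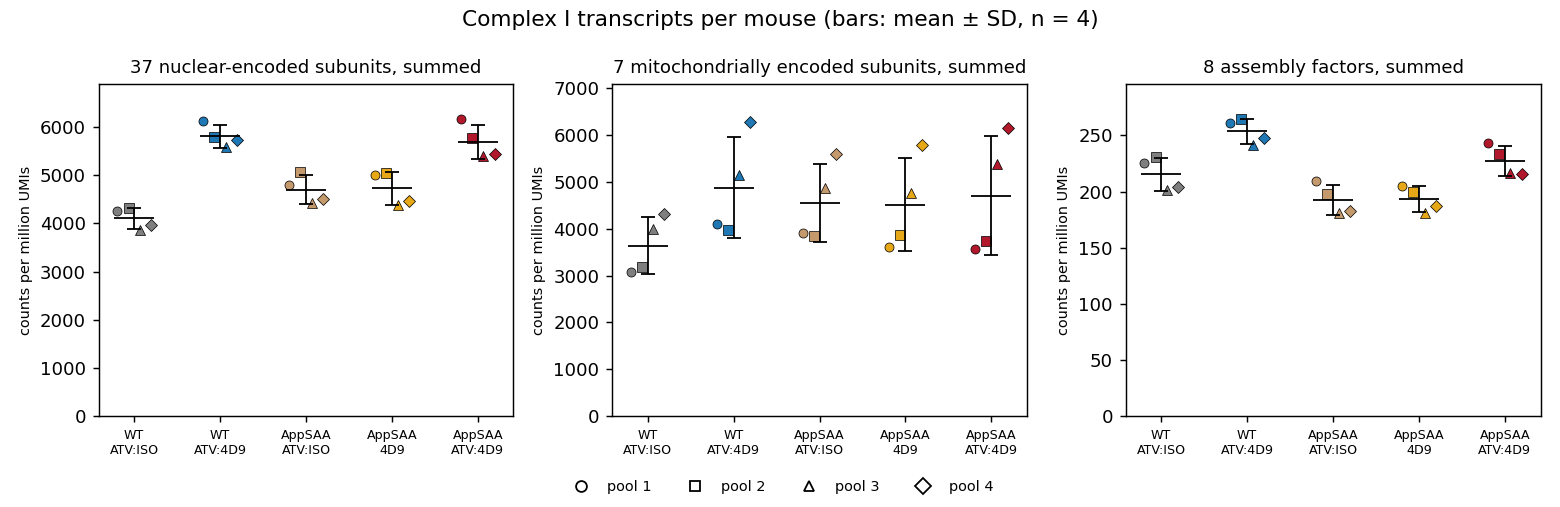
Summed level of each class of complex I genes per mouse (vertical axes, CPM) by group (horizontal axes), with a symbol for each pool and bars for mean ± SD of 4 mice. Nuclear subunits of both ATV:4D9 groups reach from 5388 CPM upwards and those of the other groups up to 5066 CPM, whereas the mitochondrially encoded subunits spread by pool within every group.

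The first comparison asks what ATV:4D9 did in brains without amyloid. In WT mice, ATV:4D9 raised 34 of 37 nuclear subunits and lowered none (median log2 fold change 0.62, edgeR's quasi-likelihood test with Benjamini-Hochberg adjustment over 14058 genes, threshold 0.05). Of all genes tested, 30.8% were higher and 32.5% lower, with a median log2 fold change of -0.05. Fold changes are from counts scaled by edgeR's TMM factors and so differ from ratios of the CPM printed. For small changes the gap can be as large as the change itself: Ndufa6 gave -0.09 on scaled counts and -0.20 without the factors. With the pool as a block, 36 of 37 were higher (35.6% of all genes higher, 39% lower). Without TMM factors the median of all genes moved to -0.17, and 33 nuclear subunits were higher and 1, Ndufa6, was lower. The shares of all genes called under that setting are not given. In 30 of the 37 the 2 groups of mice did not overlap in CPM with ATV:4D9 above, and in 1, Ndufa6, they did not overlap with ATV:4D9 below. The share of all genes without overlap was not computed, so these counts are not read as particular to complex I.

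Among the nuclear core subunits, 5 of 7 rose in WT mice (median 0.31), all 7 with the pool block, where 30.8% and 35.6% of all genes rose. Ndufv1, which holds the flavin that accepts electrons from NADH, was at 46.3, 38.8, 40.9 and 39.5 CPM with ATV:ISO and at 65.0, 56.4, 60.1 and 55.9 CPM with ATV:4D9. The groups were apart, and the log2 fold change was 0.64 ± 0.11 (SE, adjusted p = 3.3e-05). Ndufv2 (0.53) and Ndufs1 (0.31), which carry iron-sulfur clusters of the N module, rose too, as did Ndufs8 of the Q module (0.36). Ndufs7, with the last iron-sulfur cluster before quinone, and Ndufs3 gave 0.21 (adjusted p = 0.21, 1.8e-04 with the pool block) and 0.14 (adjusted p = 0.38, 0.018 with the block).

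Of the 30 accessory subunits 29 rose (median 0.65), with log2 fold changes of -0.09 to 1.28 that overlapped those of the core (0.14 to 0.64), and the difference between these classes was not tested. Ndufa12, which sits where the N and Q modules meet, was at 88.3, 81.0, 74.6 and 80.2 CPM with ATV:ISO and at 192, 171, 178 and 187 CPM with ATV:4D9. The groups were far apart, and its log2 fold change of 1.28 ± 0.12 (SE, adjusted p = 8.8e-09) was the largest of the nuclear subunits. Ndufb1-ps (1.04 ± 0.09, from 129.6 ± 4.23 to 246 ± 9.09 CPM), Ndufc1 (1.03 ± 0.13, from 78.3 ± 5.74 to 147 ± 6.28 CPM) and Ndufb6 (0.97 ± 0.12, from 50.4 ± 3.8 to 91.3 ± 2.99 CPM), all in the membrane arm, followed. Ndufab1, the mitochondrial acyl carrier protein, which also serves fatty acid and lipoic acid synthesis, was at 118, 126, 111 and 113 CPM with ATV:ISO and at 223, 202, 211 and 206 CPM with ATV:4D9 (0.96 ± 0.11, adjusted p = 3.4e-07).

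By structural module, all 8 N module subunits rose (median 0.66), 3 of 5 in the Q module (0.29), all 9 in the proximal pump module (0.62) and all 11 in the distal pump module (0.65), where 30.8% of all genes rose. The lone subunit below 0 was Ndufa6, a protein of the LYR family that binds the acyl carrier protein, at 140.2, 153, 141 and 142 CPM with ATV:ISO and at 124, 124, 124 and 129.5 CPM with ATV:4D9. The groups were apart in CPM, the log2 fold change on the scaled counts was -0.09 ± 0.07 (adjusted p = 0.28), and without scaling factors it was -0.20 (adjusted p = 0.0019). Ndufa4 of complex IV rose from 244 ± 10.8 to 454 ± 22.6 CPM (1.01 ± 0.12, adjusted p = 3e-07).

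Of the mitochondrially encoded subunits, 4 of 7 rose in WT mice (median 0.41), and 7 of 7 with the pool block, where 30.8% and 35.6% of all genes rose. The gene mt-Nd1, for the subunit at the junction of the arms, was at 1043, 903, 1205 and 1393 CPM with ATV:ISO and at 1716, 1404, 1960.3 and 2465 CPM with ATV:4D9. It was the 1 mitochondrial gene of the 7 whose groups did not overlap, and its log2 fold change was 0.85 ± 0.19 (SE, adjusted p = 5.8e-04). All 7 were higher with ATV:4D9 within each of the 4 pools. Shares over all genes, for groups apart and for a rise in every pool, were not computed. mt-Nd5 (0.41, adjusted p = 0.0041), mt-Nd4l (0.26, adjusted p = 0.011) and mt-Nd4 (0.28, adjusted p = 0.047) were called, the last losing its call without any of 9 single mice (highest adjusted p 0.21) and mt-Nd4l without WT ATV:ISO mouse 4 (0.051). mt-Nd6, the 1 subunit on the opposite strand (0.47, adjusted p = 0.059), mt-Nd2 (0.49, adjusted p = 0.086) and mt-Nd3 (0.38, adjusted p = 0.28) did not pass without the block and did with it (adjusted p = 6e-07, 3.1e-07 and 4.1e-05). Without scaling factors 1 of 7 passed, and the share of all genes under that setting is not given.

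Of the 8 assembly factors, 5 rose in WT mice and none fell (median 0.42), where 30.8% of all genes were higher and 32.5% lower. Ndufaf2, a paralogue of Ndufa12 that leaves the complex when Ndufa12 takes its place, was at 24.9, 23.5, 24.3 and 22.3 CPM with ATV:ISO and at 46.0, 44.1, 42.3 and 45.4 CPM with ATV:4D9. The groups were far apart (1.02 ± 0.11, adjusted p = 9e-08), so that this assembly factor and the subunit that replaces it were each the gene of largest rise in their class. Ndufaf6, which acts early in assembly (0.60), Ndufaf8 (0.57) and its partner Ndufaf5, which hydroxylates Ndufs7 (0.51), and Ndufaf4 of the Q module (0.32) rose as well. Ndufaf1 of the membrane arm gave 0.16 and Ndufaf7, a methyltransferase, -0.00 on the scaled counts, although in CPM its groups were apart with ATV:4D9 lower in each pool (47.6 ± 1.24 against 43.8 ± 2.08 CPM). Ndufaf3, which works with Ndufaf4, was lower in each pool (41.0, 38.8, 33.5 and 32.6 CPM with ATV:ISO, 30.8, 29.1, 29.2 and 28.7 CPM with ATV:4D9). Its groups were apart, and its log2 fold change was -0.19 ± 0.13 (adjusted p = 0.2, 0.0073 with the pool block, and -0.31 with adjusted p = 0.0057 without scaling factors).

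**Figure D2:**
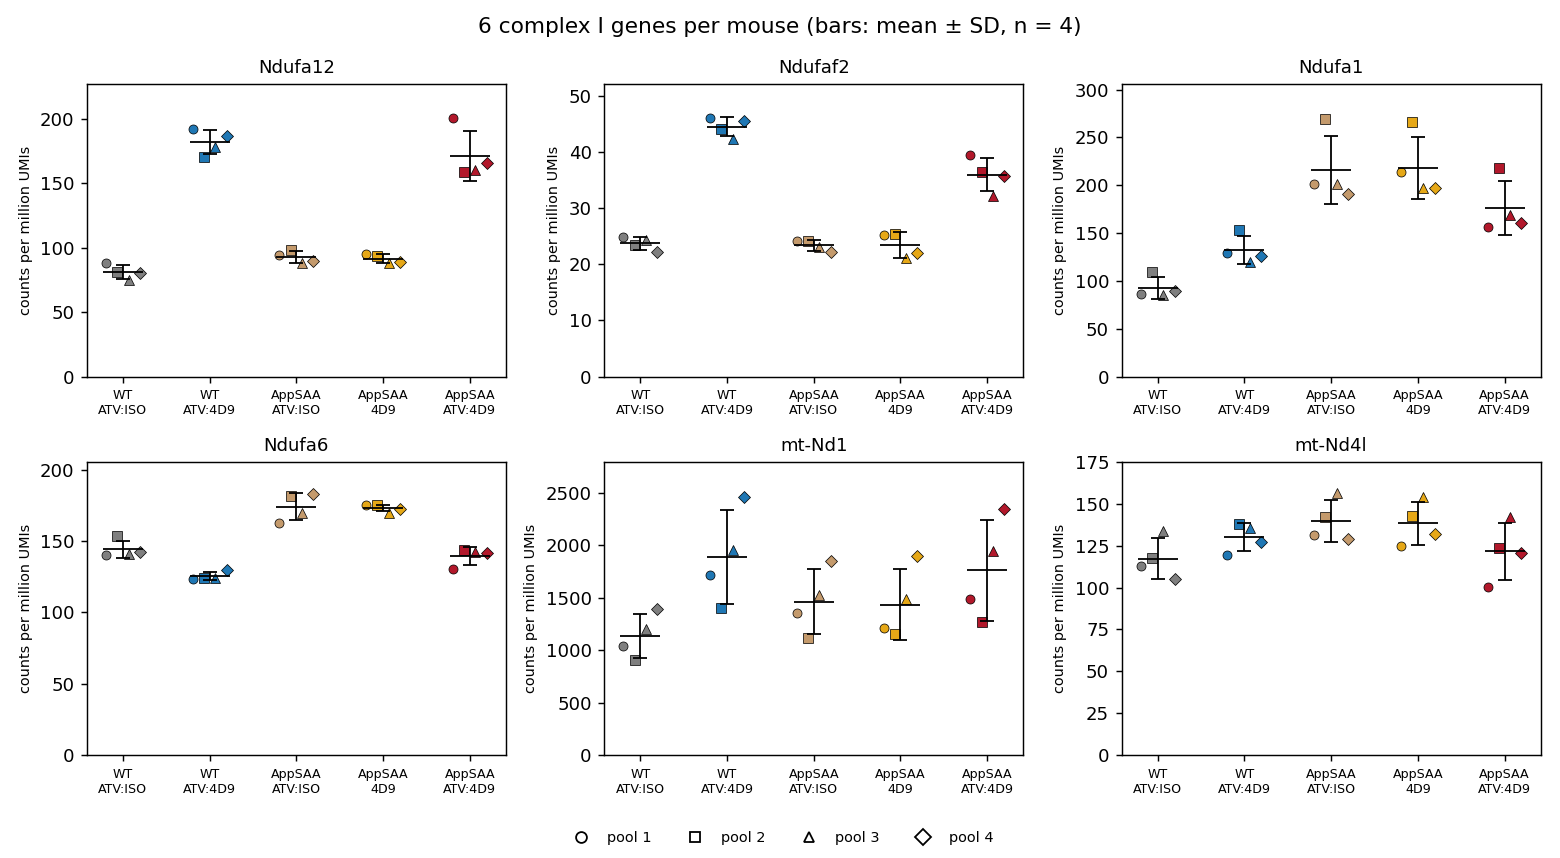
Levels of Ndufa12, Ndufaf2, Ndufa1, Ndufa6, mt-Nd1 and mt-Nd4l in every mouse (vertical axes, CPM) by group (horizontal axes), with mean ± SD of 4 mice. Ndufa12 and Ndufaf2 are high in both ATV:4D9 groups, whereas Ndufa1 is lowest in WT mice given ATV:ISO (85.3 to 109 CPM) and higher in all AppSAA groups.

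The same antibody was then compared with ATV:ISO in brains with amyloid. In AppSAA mice, ATV:4D9 raised 26 of 37 nuclear subunits and lowered 1 (median 0.35), where 27.9% of all genes were higher and 27.1% lower. With the pool block 35 were higher and 2 lower (34.5% and 36.2% of all genes). All 26 that rose had also risen in WT mice, where they made up 76.5% of the 34 that rose. Since 34 of 37 were called in WT mice, nearly any 26 would overlap to a large part, and the overlap over all genes is not given. The 2 comparisons use different mice but come from 1 fit, with mice from the same 4 pools. Leaving out 1 mouse at a time, 20 of the 27 called nuclear subunits were called every time.

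Ndufa12 again led, at 94.3, 98.1, 88.1 and 89.5 CPM with ATV:ISO and 200.2, 159, 159.8 and 166 CPM with ATV:4D9. The groups were apart (0.96 ± 0.11 (SE), adjusted p = 6.6e-07). Ndufab1 (0.82, adjusted p = 4.1e-06) and Ndufb6 (0.70) followed. Ndufb1-ps and Ndufa4 rose too, by log2 fold changes of 0.63 and 0.83. In the core, Ndufv1 (0.49), Ndufv2 (0.48), Ndufs8 (0.32) and Ndufs1 (0.26) passed, and Ndufs3 (0.23) and Ndufs7 (0.19) passed with the pool block alone. By module, 7 of 8 N module subunits, 2 of 5 in the Q module, 7 of 9 in the proximal and 8 of 11 in the distal pump module rose, where 27.9% of all genes did.

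Ndufa6 fell in AppSAA mice. It was at 163, 181, 169.8 and 183 CPM with ATV:ISO and 130.2, 144, 142 and 142 CPM with ATV:4D9, with the groups apart (-0.25 ± 0.07, adjusted p = 0.0039). Ndufa1, a small X-linked membrane subunit, was at 201, 269, 202 and 191 CPM with ATV:ISO and 157, 218, 169 and 160.4 CPM with ATV:4D9. Those groups overlapped although every pool was lower (-0.23 ± 0.14, adjusted p = 0.18, and 6.2e-04 with the pool block).

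Of the mitochondrially encoded subunits, 0 of 7 were called in AppSAA mice by edgeR, DESeq2 or limma voom (median 0.06, with 0 of 7 at an unadjusted p under 0.05 by edgeR). By edgeR 27.9% of all genes were higher and 27.1% lower. With the pool block 2 of the 7 were higher, mt-Nd1 (0.32, adjusted p = 3.9e-05) and mt-Nd6 (0.15, adjusted p = 0.018), and mt-Nd4l was lower (-0.13, adjusted p = 0.015), where 34.5% of all genes were higher and 36.2% lower. Levels of mt-Nd1 were 1359, 1112, 1526 and 1854 CPM with ATV:ISO and 1485, 1267, 1946 and 2351 CPM with ATV:4D9, which overlapped. Its log2 fold change without the block was 0.34 ± 0.19 (adjusted p = 0.13), and it was called when ATV:4D9 mouse 2 was left out. Among the 8 assembly factors the same 5 genes as in WT mice rose, where 27.9% of all genes did: Ndufaf2 (0.70, adjusted p = 1.5e-05), Ndufaf6 (0.68), Ndufaf5 (0.65), Ndufaf4 (0.37) and Ndufaf8 (0.33). The call of Ndufaf8 (adjusted p = 0.04) was lost without any of 4 single mice, AppSAA ATV:ISO 3 or 4 or ATV:4D9 1 or 2 (highest adjusted p 0.14).

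4D9 without the transport vehicle gave no call in complex I. Against ATV:ISO in AppSAA mice, 0 of 53 members were called by edgeR, where 0% of all genes were higher and 0% lower (0% and 0% with the pool block). None of the 53 had an unadjusted p under 0.05 by edgeR, DESeq2, limma voom or the blocked fit. Among all genes 79 (0.56%) did by edgeR and 66 (0.47%) by DESeq2, which called 1 gene, no member. By limma voom 81 (0.58%) did, and 280 (1.99%) with the block. At shares this low, a count of 0 among 53 does not set complex I apart from other genes. The shares also lie well below the fraction of 0.05 that a test would give without any effect, so p-values in these fits ran high. The zeros therefore do not show that 4D9 left complex I unchanged. Log2 fold changes of the members lay between -0.05 and 0.11. Against 4D9 in place of ATV:ISO, ATV:4D9 raised 25 nuclear subunits and lowered 1 (median 0.33, with 27.6% of all genes higher and 26.7% lower), and with the pool block 35 and 2 (34.2% and 35.6% of all genes). Ndufa12 gave 0.97, Ndufaf2 0.68, Ndufa6 -0.25 and mt-Nd1 0.36 (adjusted p = 0.12, 2.1e-05 with the block). This comparison shares the ATV:4D9 mice with the previous one.

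**Figure D3:**
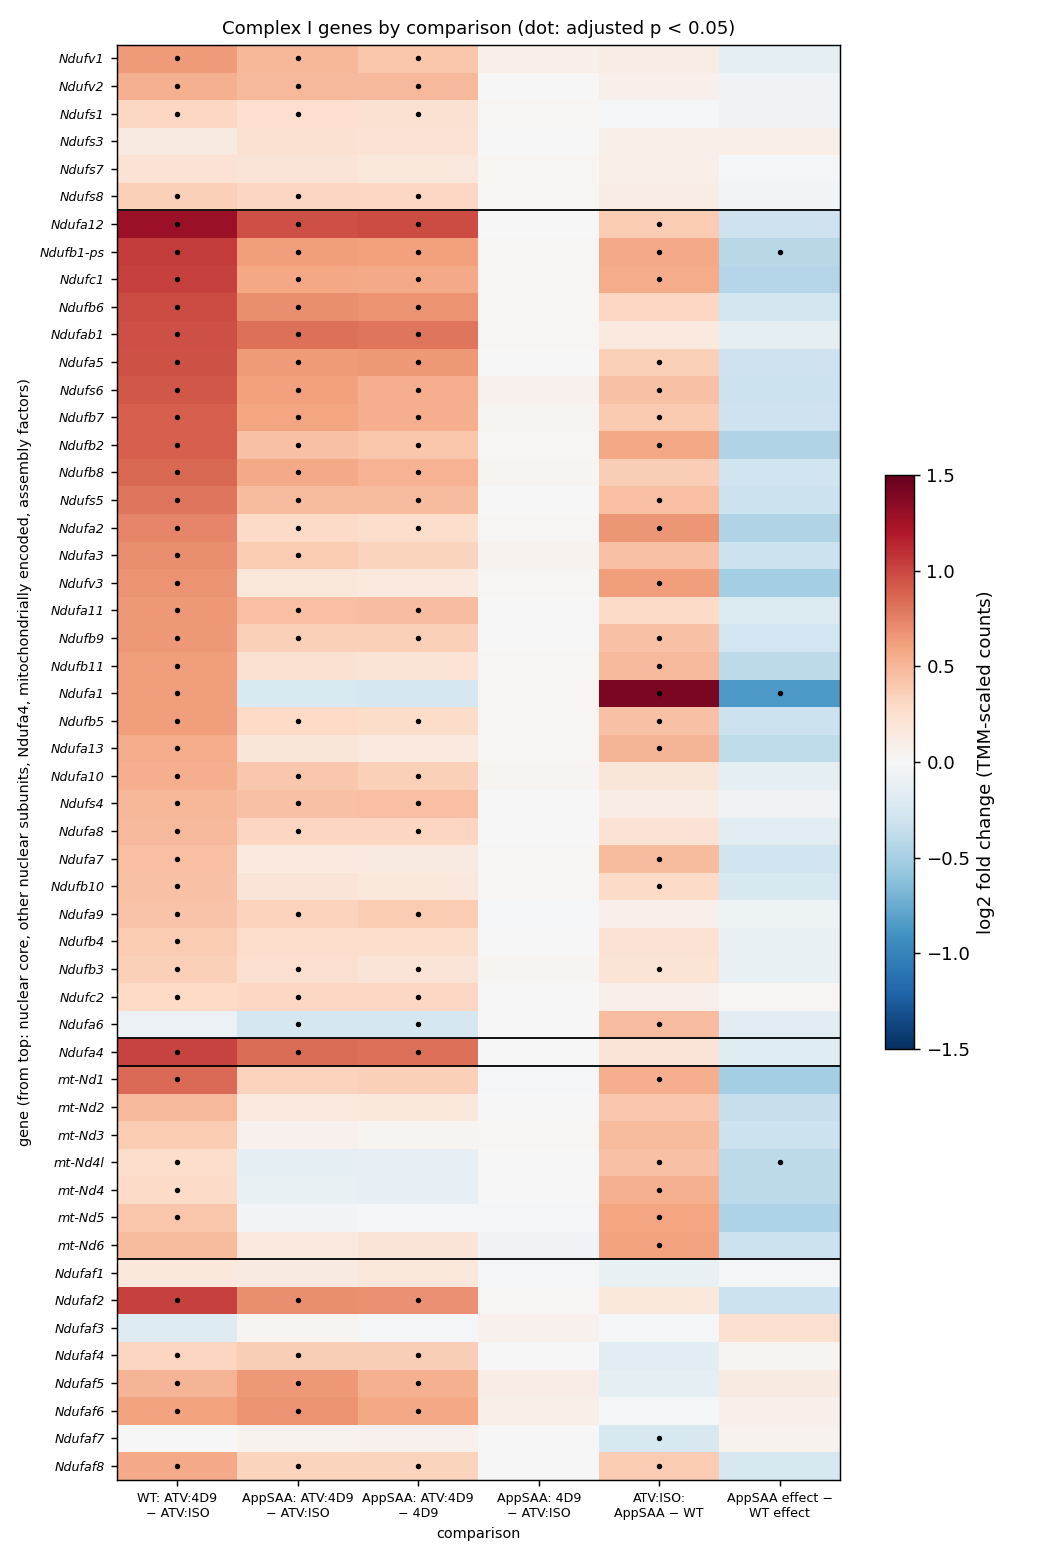
Log2 fold change (colour, from TMM-scaled counts) of complex I genes, 36 of the 37 nuclear subunits among them, and Ndufa4 (rows) in 5 comparisons and in the difference between genotypes (columns), with a dot where the adjusted p was under 0.05. The column for 4D9 against ATV:ISO has no dot, and Ndufa1 has the deepest colour of the genotype column (1.41).

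Genotype was compared under ATV:ISO. AppSAA mice had 19 of 37 nuclear subunits higher than WT mice and none lower (median 0.36, with 14.4% of all genes higher and 13.7% lower), and 28 with the pool block (21.5% and 29.4% of all genes). The balance of all genes depended on scaling: without TMM factors, which were 1.05 to 1.16 in WT mice given ATV:ISO and 0.930 to 1.03 in AppSAA mice given ATV:ISO, 10.8% of genes were higher and 37.5% lower, and the median of all genes moved from -0.06 to -0.24. Under that setting 16 nuclear subunits were higher and 1, Ndufs1 (-0.20, adjusted p = 0.036), was lower.

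Ndufa1 differed most between genotypes, at 86.5, 109, 85.3 and 89.6 CPM in WT mice and 201, 269, 202 and 191 CPM in AppSAA mice. The groups were far apart, with a log2 fold change of 1.41 ± 0.15 (SE, adjusted p = 4.1e-07). The WT mouse recorded as female, with 89.6 CPM, lay within the range of the other WT mice. Ndufa2 (0.66 ± 0.11, from 176 ± 11.5 to 245 ± 19.2 CPM) and Ndufv3, an accessory subunit of the N module (0.62 ± 0.15, from 105 ± 12.9 to 141 ± 16.4 CPM), came next, with Ndufb2 (0.58) and Ndufb1-ps (0.57) after them. Ndufa6 was higher in AppSAA mice (0.46, adjusted p = 3.5e-05). Of the accessory subunits 19 of 30 were called, and of the 7 core subunits 0 (median 0.10, none with an unadjusted p under 0.05), or 2 with the pool block, Ndufv1 among them. The direction of the core depended on scaling, since all 7 core subunits were below 0 without scaling factors (median -0.08). By module, 4 of 8 in the N module, 1 of 5 in the Q module, 4 of 9 in the proximal and 8 of 11 in the distal pump module were higher, where 14.4% of all genes were.

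Mitochondrially encoded subunits were higher in AppSAA mice in 5 of 7 (median 0.53), in 7 of 7 with the pool block, and in 2 of 7 without scaling factors. Of all genes 14.4%, 21.5% and 10.8% were higher in these settings. mt-Nd5 was at 165, 206, 213 and 190.3 CPM in WT mice and 207, 274, 279 and 269.8 CPM in AppSAA mice, which overlapped between pools while each pool was higher (0.59 ± 0.12, adjusted p = 6e-04). mt-Nd4 (0.53, adjusted p = 0.0024) and mt-Nd4l (0.44, adjusted p = 5.6e-04) passed, as did mt-Nd6 (0.61, adjusted p = 0.037) and mt-Nd1 (0.55, adjusted p = 0.035), each of the latter losing the call without any of 6 single mice (highest adjusted p 0.11 and 0.12). Of the 8 assembly factors 1 was called higher and 1 lower, where 14.4% and 13.7% of all genes were. With the pool block 2 and 2 were (21.5% and 29.4% of all genes), so both counts were close to those shares. In CPM 5 were lower in all 4 pools and 1 higher, and the share over all genes was not computed for this. Ndufaf8 was higher (0.38, adjusted p = 0.041, lost without any of 4 mice), and Ndufaf7 was lower, at 47.7, 47.4, 49.1 and 46.1 CPM in WT mice and 39.9, 32.8, 33.2 and 35.6 CPM in AppSAA mice (-0.24 ± 0.09, adjusted p = 0.043). The groups of Ndufaf7 were apart, yet its call was lost without any of 13 mice (highest adjusted p 0.14), and with the pool block the adjusted p was 1.2e-04. Ndufaf4 (34.8 ± 2.42 CPM in WT mice, 27.2 ± 1.27 CPM in AppSAA mice) and Ndufaf5 (4.71 ± 0.314 and 3.76 ± 0.145 CPM) were also apart and lower in every pool without a call (-0.17 and -0.14, adjusted p = 0.19 and 0.4). With the block Ndufaf4 passed (adjusted p = 0.0075), as did Ndufaf2, which was higher (0.16, adjusted p = 0.036), and Ndufaf5 did not (adjusted p = 0.26). Without scaling factors 0 assembly factors were higher and 4 lower (10.8% and 37.5% of all genes). Summed disease-associated markers, at 1375 to 2602 CPM in WT mice and 9929 to 12197 CPM in AppSAA mice given ATV:ISO, moved with these differences. So did endothelial markers (18.3 to 24.4 CPM in WT mice, 37.5 to 52.2 CPM in AppSAA mice), astrocyte markers (135 to 164 CPM, 82.8 to 111 CPM), neuronal markers (1.12 to 1.77 CPM, 0.325 to 0.748 CPM) and the 6 microglial markers (29982 to 32580 CPM, 22811 to 26520 CPM), each wholly apart. Homeostatic markers (8331 to 10013 CPM, 4724 to 6322 CPM) and interferon markers (62.4 to 78.4 CPM, 91.8 to 113 CPM) were wholly apart too. Their part was not tested.

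Whether the response to ATV:4D9 differed between genotypes was tested as an interaction. Of the 37 nuclear subunits, 35 had a smaller log2 fold change in AppSAA than in WT mice (median difference -0.28), but 2 were called, both lower, where 5.35% of all genes were called lower and 3.79% higher. The share of all genes with a smaller fold change is not given, so the 35 are not read as particular to complex I. With the pool block, 21 of 37 were called lower (13.6% of all genes lower, 16.9% higher). Ndufa1 differed most, rising by a log2 fold change of 0.62 in WT mice (129.6, 153, 120.0 and 126 CPM with ATV:4D9) and not rising in AppSAA mice, a difference of -0.86 ± 0.21 (SE, adjusted p = 0.011, at most 0.027 with any mouse left out). Ndufa1 averaged 295 CPM in cluster 1 and 107 CPM in cluster 0. Cluster 1 held 33.5 to 44.6% of cells in AppSAA mice given ATV:ISO, 9.2 to 16.4% with ATV:4D9, and at most 2.5% in WT mice. Within cluster 3 Ndufa1 rose in both genotypes, and within cluster 4 it fell in AppSAA mice, as given further on. The part of cluster shares in this difference was not tested. For Ndufb1-ps the difference was -0.41 ± 0.13 (adjusted p = 0.045, 0.0018 with the block), a call lost without any of 12 of the 20 mice. Ndufs3 and Ndufc2 were the 2 subunits above 0 (0.09 and 0.02).

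Among the mitochondrial genes, mt-Nd4l had 113, 118, 134 and 105 CPM with ATV:ISO and 119, 138, 136 and 128 CPM with ATV:4D9 in WT mice, and 132, 142, 157 and 129 CPM against 101, 124, 142 and 121 CPM in AppSAA mice. Each of the 4 pools was thus higher in WT mice and lower in AppSAA mice, although groups overlapped. The difference was -0.40 ± 0.12 (adjusted p = 0.042, 2.1e-04 with the block), and its call was lost without any of 13 of the 20 mice. The other 6 mitochondrial genes lay between -0.51 (mt-Nd1) and -0.32 and were called with the pool block, as all 7 were. Of the 8 assembly factors 0 were called (median 0.05, 1 at an unadjusted p under 0.05), and with the pool block 1 was higher and 2 lower.

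**Figure D4:**
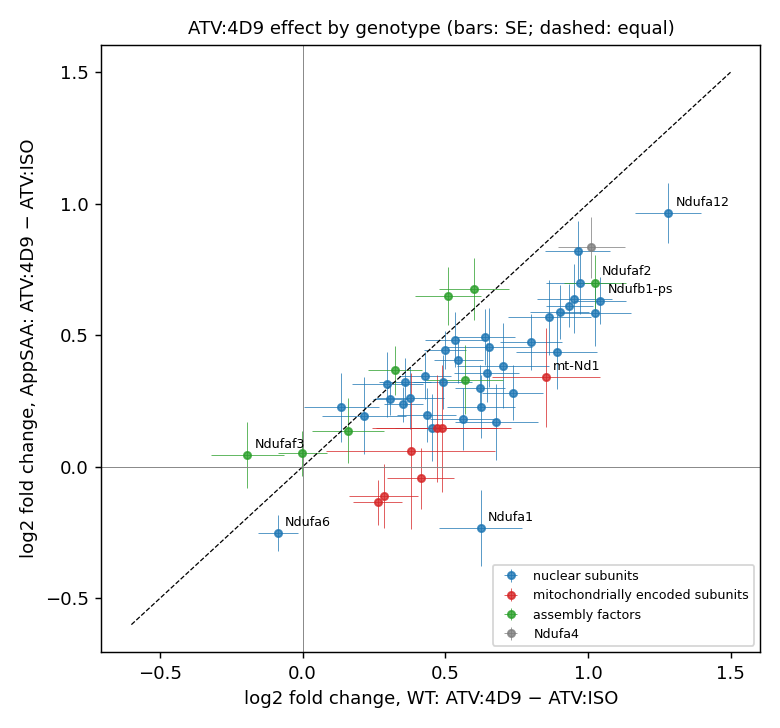
Log2 fold change of the same genes with ATV:4D9 against ATV:ISO in WT mice (horizontal axis) and AppSAA mice (vertical axis), with bars for the SE and a dashed line where they would be equal. Most nuclear subunits lie below the line, Ndufa12 is highest on both axes (1.28 and 0.96), and Ndufa1 is at 0.62 and -0.23.

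Counted per cell in place of relative to all UMIs, every nuclear subunit was higher with ATV:4D9 in all 4 pools in both genotypes, and in AppSAA than in WT mice given ATV:ISO. Nuclear complex I UMIs averaged 35.2 ± 1.9 (SD, n = 4) per cell in WT mice given ATV:ISO and 97.3 ± 8.7 after ATV:4D9, and 54.0 ± 3.1, 56.0 ± 5.3 and 97.3 ± 9.8 in AppSAA mice given ATV:ISO, 4D9 and ATV:4D9. Mitochondrially encoded subunits averaged 31.6 ± 7.8 and 83.1 ± 26.8 UMIs per cell in WT mice, and 52.8 ± 13.2, 54.9 ± 19.7 and 81.0 ± 25.0 in AppSAA mice in the same order. The median ratio over nuclear subunits was 2.77 for ATV:4D9 against ATV:ISO in WT mice and 1.80 in AppSAA mice. Over mitochondrial subunits it was 2.41 in WT mice and 1.47 in AppSAA mice. These counts are not scaled to all UMIs of a cell, which differed between the groups too. Median UMIs per cell had a mean over WT mice of 7566 (ATV:ISO) and 15338 (ATV:4D9). Over AppSAA mice it was 9338.5 and 15523. The share of all genes higher per cell in every pool was not computed. The counts and ratios per cell are therefore not read as particular to complex I. More RNA per cell and deeper capture of its RNA cannot be told apart in such counts.

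The deposited annotation divides the cells into 6 clusters at the coarser resolution, numbered 0 to 5. By summed marker lists, cluster 0 was highest in homeostatic genes, 1 in disease-associated genes, 3 in immediate early genes, 4 in cycling genes and 5 in interferon genes, and cluster 2 led in no list. Their shares depended on the group: cluster 0 held 57.2 to 63.5% of the cells of WT mice given ATV:ISO and 2.0 to 4.4% with ATV:4D9, cluster 2 held 1.0 to 1.6% and 44.7 to 51.7%, and cluster 4 held 0.2 to 0.4% and 36.3 to 45.7%. In AppSAA mice cluster 1 held 33.5 to 44.6% with ATV:ISO and 9.2 to 16.4% with ATV:4D9, and cluster 5 1.3 to 3.8% and 18.9 to 28.6%. Sums over a mouse therefore mix these clusters in different proportions.

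Levels of complex I differed between clusters, which is a description since the clusters were made from the same cells. Nuclear subunits were lowest in cluster 3 (mean 3964 ± 338 CPM (SD, n = 20 mice)) and cluster 0 (4338 ± 288, n = 20), intermediate in 5 (4929 ± 538, n = 17), 1 (5122 ± 411, n = 16) and 2 (5478 ± 534, n = 20), with the highest mean in 4 (6006 ± 369, n = 16). These means pool groups, and cluster 4 had no WT mouse given ATV:ISO with enough cells. The order of clusters 2 and 4 differed between groups. Cluster 4 was above cluster 2 in 9 of 16 mice (median log2 ratio 0.08). In the ATV:4D9 groups cluster 2 had the higher mean (5929 against 5856 CPM in WT mice, 6018 against 5906 CPM in AppSAA mice). In AppSAA mice given ATV:ISO or 4D9, cluster 4 had the higher mean (6149 against 5300 CPM and 6116 against 5172 CPM). Clusters 5, 1 and 2 differed from the next of them by less than the SD of either, whereas 3 and 0, and 0 and 5, differed by more than either SD. Pooled over groups, the difference between clusters 2 and 4 was less than the SD of cluster 2. Within mice, 36 of 37 nuclear subunits were above cluster 0 in cluster 2 (median log2 ratio 0.29), 33 in cluster 4 (0.43), 25 in cluster 1 (0.23) and 1 in cluster 3 (-0.14). Mitochondrial subunits were highest relative to cluster 0 in cluster 1 (median 0.45, 7 of 7 above) and at 0.22 in cluster 4, 0.16 in cluster 2 and -0.02 in cluster 3. Assembly factors ran the other way in cluster 1 (-0.28), at 177.5 ± 21.3 CPM against 224 ± 17.9 CPM in cluster 0.

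Within mice, cluster 1, highest in disease-associated genes, was below cluster 4 in summed nuclear subunits in 13 of 13 mice and below cluster 2 in 12 of 16, and its summed mitochondrial subunits (4962 CPM) were below those of cluster 4 (5125 CPM) in 9 of 13. Of the nuclear subunits, Ndufa1 had the largest ratio of cluster 1 to cluster 0, at 295 ± 65.4 CPM (SD, n = 16 mice) against 107 ± 18.7 CPM (n = 20) in cluster 0, higher in 16 of 16 mice (median log2 ratio 1.49). Ndufa1 was at 151 CPM in cluster 2, 108 in cluster 3, 192 in cluster 4 and 166 in cluster 5. Ndufaf4 was lower in cluster 1 than in cluster 0 in 16 of 16 mice (median log2 ratio -0.93).

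**Figure D5:**
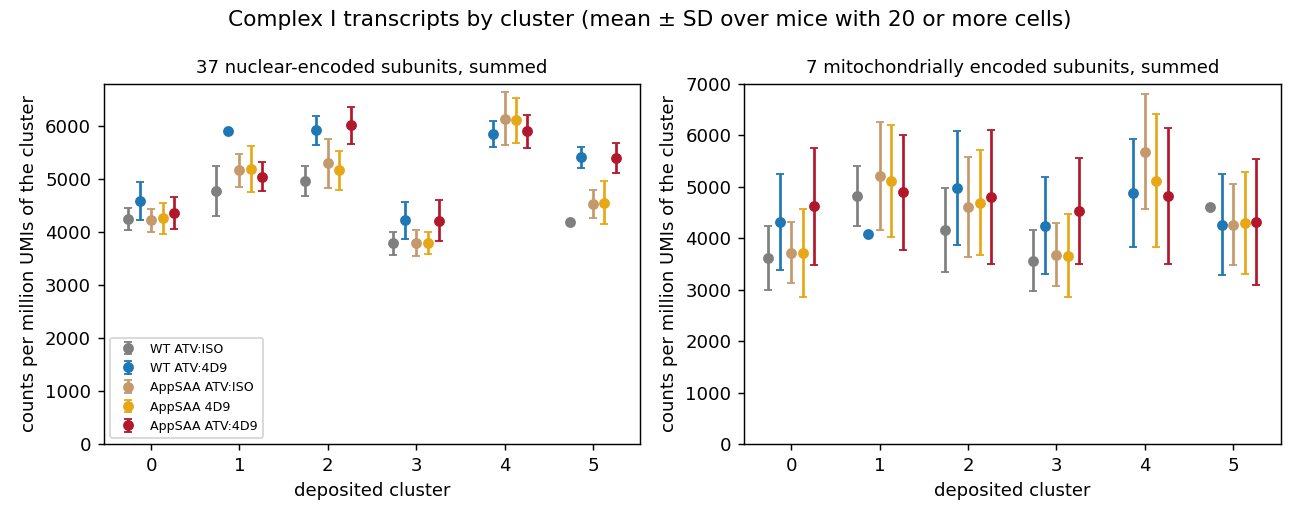
Summed level of nuclear (left) and mitochondrially encoded (right) complex I subunits (vertical axes, CPM of the cluster) in deposited clusters 0 to 5 (horizontal axes) by group, as mean ± SD over mice with 20 or more cells (a point without a bar is 1 mouse). Nuclear subunits average 6006 CPM in cluster 4 and 3964 CPM in cluster 3, and in clusters 0, 2, 3 and 5 the means of both ATV:4D9 groups lie above the others, with single mice overlapping in 0, 2 and 3.

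Comparisons within clusters used mice with at least 20 cells there and at least 3 mice a group. Cell numbers per mouse were uneven between ATV:ISO and ATV:4D9. In cluster 0 they were 1255 to 1897 and 60 to 186 in WT mice, and 1070 to 1930 and 37 to 195 in AppSAA mice. In cluster 2 they were 23 to 42 and 1339 to 2186 in WT mice, and 75 to 172 and 818 to 1971 in AppSAA mice. In cluster 3 they were 799 to 978 and 104 to 242 in WT mice, and 830 to 1448 and 68 to 268 in AppSAA mice. In cluster 0, ATV:4D9 raised 2 nuclear subunits in WT mice, Ndufa12 (0.49, adjusted p = 0.025) and Ndufb1-ps (0.42), where 1.47% of all genes were called either way, and 11 with the pool block (8.96%). In AppSAA mice 0 were called there (0.667% of all genes, 8 of 44 subunits of either kind at an unadjusted p under 0.05), and 7 with the block (5.27%). In cluster 3, 8 nuclear subunits rose in WT mice (6.17% of all genes called, 26 with the block against 17.5%) and 6 in AppSAA mice (4.33%, 17 with the block against 12.6%), with Ndufa1 at 0.70 (adjusted p = 0.0011) and 0.76 (adjusted p = 7.5e-04). In cluster 2, 5 rose in WT mice (5.88%, 14 with the block against 11%) and 8 in AppSAA mice (13.2%, 18 with the block against 24.8%), among them Ndufs6 (0.50) and Ndufa12 (0.46) in AppSAA mice. These counts depended on single pools. Leaving out 1 pool at a time, they ranged from 0 to 1 in WT mice and 0 to 11 in AppSAA mice in cluster 2, from 1 to 6 and 2 to 3 in cluster 3, and from 0 to 2 in WT mice in cluster 0.

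In cluster 5, 16 of 37 nuclear subunits rose in AppSAA mice and none fell (29.7% of all genes called either way, 27 with the block against 37.2%), led by Ndufa12 (0.92, adjusted p = 9.4e-06), and 10 to 16 were called with 1 pool left out. Cluster 1 gave 0 nuclear or mitochondrial calls in AppSAA mice (1.51% of all genes, 0 of 44 subunits at an unadjusted p under 0.05), and 1 mitochondrial call with the block (7.77%). In cluster 4, 3 nuclear subunits rose in AppSAA mice, Ndufab1 (0.52), Ndufa12 (0.35) and Ndufa9 (0.31), and 4 fell, Ndufa1 (-0.86, adjusted p = 1.8e-04), Ndufb11 (-0.46), Ndufa2 (-0.38) and Ndufa6 (-0.32), where 24.5% of all genes were called (30.1% with the block, 9 nuclear subunits). With 1 pool left out 2 to 5 were called. AppSAA mice given ATV:ISO had 27 to 74 cells in cluster 4 and those given ATV:4D9 had 445 to 1438. In cluster 5 they had 46 to 233 and 690 to 1071. Ndufa1 in cluster 4 was at 251 ± 54.8 CPM with ATV:ISO, 254 ± 46.7 CPM with 4D9 and 137 ± 15.9 CPM with ATV:4D9 in AppSAA mice, and at 125 ± 13.8 CPM in WT mice given ATV:4D9 (SD, n = 4 each).

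Mitochondrial subunits gave single calls within clusters: mt-Nd5 rose in cluster 0 (0.56) in AppSAA mice and in cluster 3 in WT (0.35) and AppSAA mice (0.52), and mt-Nd4 (-0.48) and mt-Nd5 (-0.42) fell in cluster 4 in AppSAA mice. Each of these counts reached 0 with some pool left out. With the pool block, 6 of 7 were called in cluster 0 in each genotype and 6 and 7 in cluster 3 in WT and AppSAA mice, while 3 were in cluster 2 in WT mice, 4 in cluster 4 and 1 in each of clusters 2 and 5 in AppSAA mice. Of the 8 assembly factors in AppSAA mice, 3 were called in cluster 4, where 24.5% of all genes were: Ndufaf4 (0.57) and Ndufaf2 (0.48) rose and Ndufaf3 (-0.83) fell. In cluster 5, where 29.7% of all genes were called, 2 of 8 rose, Ndufaf6 (0.96) and Ndufaf8 (0.34).

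Between genotypes under ATV:ISO, no nuclear or mitochondrial subunit was called within clusters 0, 1, 2 or 3, where 0.274%, 1.21%, 0.281% and 0.189% of all genes were, and 0, 2, 4 and 0 of 44 subunits had an unadjusted p under 0.05. WT mice had 27 to 62 cells in cluster 1 (3 mice) and 23 to 42 in cluster 2, against 1160 to 2269 and 75 to 172 in AppSAA mice. Median log2 fold changes in clusters 0 to 3 were 0.01, 0.10, 0.14 and 0.02 (nuclear) and 0.03, 0.18, 0.20 and 0.06 (mitochondrial). The lack of calls therefore does not show that the genotypes were equal within clusters. With the pool block 1 nuclear subunit was called in each of clusters 0, 1 and 2 and none in 3 (4.61%, 2.68%, 1.33% and 1.64% of all genes). It was Ndufa1 in each case, with log2 fold changes of 0.20, 0.65 and 0.45. In cluster 1 Ndufa1 was at 201.5 ± 42.5 CPM in 3 WT mice and 314 ± 39.4 CPM in 4 AppSAA mice given ATV:ISO.

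Nuclear subunits of the remaining respiratory chain rose too. Of 40 nuclear subunits of complexes II to V, 38 rose with ATV:4D9 in WT mice (median 0.86, where 30.8% of all genes rose), 35 rose and 1 fell in AppSAA mice (0.44, where 27.9% rose and 27.1% fell), 0 were called for 4D9 against ATV:ISO (none at an unadjusted p under 0.05), and 27 were higher in AppSAA than in WT mice (0.48, where 14.4% of all genes were). Their interaction was called lower in 7 of 40 (median -0.40, 5.35% of all genes) and in 29 of 40 with the pool block (13.6% of all genes), where complex I had 2 of 37 and, with the block, 21 of 37. Of the 6 other mitochondrially encoded genes, 2 rose in WT mice (median 0.34, mt-Co2 at 0.43 and mt-Cytb at 0.33), close to the 30.8% of all genes, 6 with the pool block (35.6% of all genes), and 0 in AppSAA mice, while 3 were higher in AppSAA than in WT mice (0.53). Their sums were 1.39 to 1.62 times higher in pools 3 and 4 than in pools 1 and 2.

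Among assembly factors that do not carry the Ndufaf name, calls are read beside those over all genes (30.8% higher and 32.5% lower in WT mice, 27.9% and 27.1% in AppSAA mice). Of 10 tested, 4 rose in WT mice, Nubpl, which delivers iron-sulfur clusters (0.53), Timmdc1 of the membrane arm (0.49), Dmac1 (0.38) and Foxred1 (0.28), and 3 fell, Dmac2 (-0.48), Tmem186 (-0.42) and Tmem126b (-0.27). In AppSAA mice 3 rose, Timmdc1 (0.53), Nubpl (0.35) and Foxred1 (0.35), and 2 fell, Dmac2 (-0.45) and Tmem186 (-0.38).

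Of 13 genes that express or copy the mitochondrial genome, 4 rose and 4 fell in WT mice, and 4 rose and 3 fell in AppSAA mice, close to the shares over all genes (30.8% and 32.5%, 27.9% and 27.1%). Those that rose were Slirp and Lrpprc, which stabilise mitochondrial messenger RNAs (0.89 and 0.41 in WT, 0.75 and 0.36 in AppSAA mice), Tfam, which packages and transcribes the mitochondrial genome (0.43 and 0.42), and Tfb1m, which methylates ribosomal RNA (0.63 and 0.56). The DNA helicase Twnk (-0.56 and -0.69), the polymerase subunit Polg2 (-0.47 and -0.51) and the transcription initiation factor Tfb2m (-0.30 and -0.33) fell in both, and Mgme1 in WT mice (-0.36). Of 7 regulators tested, 2 rose and 3 fell in each genotype, where 30.8% and 32.5% of all genes did in WT mice and 27.9% and 27.1% in AppSAA mice. The coactivator Pprc1 (0.72 and 0.44) and Myc (0.53 and 0.35) rose, whereas Nrf1 (-0.44 and -0.25), the ETS factor Gabpa (-0.34 and -0.26) and Esrra (-0.32 and -0.18) fell in WT and AppSAA mice. Yy1 was not called (-0.19 and -0.06).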

How the data were processed

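Per the labels and the study's methods, the authors sorted microglia, tagged the cells of each mouse (CellPlex), sequenced 3′ libraries in 4 pools, aligned reads to mm10 with Cell Ranger 6.1.1 and clustered the cells in Seurat. The values deposited for 74758 cells are raw UMI counts, and the deposited annotation gives each cell's mouse, group, pool, cluster and percentage of mitochondrially encoded UMIs, as computed by the authors. Which cells or genes the authors removed is not given in the sources used here, and no doublet caller was run here. Counts of every cell summed to the deposited UMI total. Of 74212 distinct barcodes, 543 were found in more than 1 pool.

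All cells were kept and counts were added up over the cells of a mouse, or of a mouse within a cluster where it had at least 20 cells. edgeR 4.0.16 in R 4.3.3 was used for the tests (filterByExpr, TMM factors, quasi-likelihood test, all 5 groups in 1 fit, Benjamini-Hochberg adjustment over 14058 genes, two-sided, called at an adjusted p of 0.05). The 4D9 comparison and the interaction came from the same fit, and clusters were fitted apart. Each pool, by the deposited labels, held 1 mouse of every group and so pairs the mice: departures from group means had correlations of 0.143 to 0.607 over the 40 same-pool pairs and a median of -0.193 over pairs from different pools. The reported fits have no pool term, and counts with the pool as a block are given beside many results or with the alternatives, though not for every list. Alternatives were DESeq2 1.42.0, limma 3.58.1 (voom), other scaling, other filters and leaving out each mouse. The members and gene lists were chosen with earlier results of these data known. Named genes were the nuclear core, all mitochondrially encoded subunits, all assembly factors, Ndufa4, Ndufa4l2 and, per comparison, the 3 largest rises and falls among other called nuclear subunits. One gene to which this rule applies is not reported here, although counts over its class include it. Others named for their values were chosen after these were seen.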

Additional observations from a re-analysis of the deposited data

Results flagged for a closer look

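Of 170 groups of 4 mice tested for a mouse far from the other 3 (Dixon's test, which flags about 1 in 20 groups by chance), 9 stood out. The highest mouse was set apart in WT mice given ATV:4D9 for Ndufaf4 (44.6 CPM) and Ndufa6 (129.5 CPM), and in AppSAA mice given ATV:4D9 for Ndufab1 (221 CPM) and Ndufa12 (200.2 CPM). In AppSAA mice given ATV:ISO this held for Ndufv1 (41.6 CPM), Ndufv2 (79.7 CPM) and Ndufa1 (269 CPM). The lowest mouse was set apart for mt-Nd5 in AppSAA mice given ATV:ISO (207 CPM) and 4D9 (199.9 CPM). Outliers were shared by pool in part: those of Ndufv1, Ndufv2, Ndufab1, Ndufa12 and mt-Nd5 were all mice of pool 1.

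The effect of ATV:4D9 was called different between WT and AppSAA mice by a test of the difference itself for 3 named genes. The log2 differences were -0.86 for Ndufa1, -0.41 for Ndufb1-ps and -0.40 for mt-Nd4l. The 2 nuclear calls were among 37 subunits tested, close to the 5.35% of all genes called lower. The call was lost without any of 12 of the 20 mice for Ndufb1-ps and any of 13 for mt-Nd4l, and for Ndufa1 it was kept without any 1 mouse. Ndufa1 differed between clusters whose shares moved with the groups, as given above, and the part of this in its call was not tested.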

How the results depend on the processing

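The pool as a block (the paired analysis) moved many counts of called subunits. In WT mice given ATV:4D9 mitochondrial calls went from 4 to 7. In AppSAA mice nuclear subunits called lower went from 1 to 2 and mitochondrial calls from 0 to 3 against ATV:ISO, and from 1 to 2 and from 0 to 4 against 4D9. Interaction calls went from 2 to 21 (nuclear, lower) and from 1 to 7 (mitochondrial). Within clusters, nuclear calls with ATV:4D9 went in WT mice from 2 to 11 (cluster 0), 5 to 14 (cluster 2) and 8 to 26 (cluster 3), and in AppSAA mice from 0 to 7, 8 to 18 and 6 to 17 there and from 16 to 27 in cluster 5. Mitochondrial calls went in WT mice from 0 to 6, 0 to 3 and 1 to 6 in clusters 0, 2 and 3, and in AppSAA mice from 1 to 6, 0 to 1, 0 to 1, 1 to 7, 2 to 4 and 0 to 1 in clusters 0 to 5. For genotype 1 nuclear call appeared in each of clusters 0, 1 and 2 in place of 0. The block moved none of the other counts of nuclear or mitochondrially encoded complex I subunits called by over 1.5 times. Outside these subunits it moved others. The interaction of complexes II to V went from 7 to 29 calls, their calls in cluster 0 from 4 to 25 (WT), 1 to 14 (AppSAA) and 0 to 6 (genotype), in cluster 2 from 10 to 26 (WT), 12 to 30 (AppSAA) and 0 to 2 (genotype), in cluster 3 from 23 to 36 and 18 to 30, in cluster 4 from 5 to 10 (AppSAA) and in cluster 1 from 0 to 1 (genotype). Calls of other mitochondrially encoded genes went from 0 to 5 in cluster 0 in each genotype, from 0 to 6 (WT) and 0 to 5 (AppSAA) in cluster 3, and from 2 to 5 in cluster 4 (AppSAA). Over all cells they went from 2 to 6 in WT mice and 3 to 6 for genotype, and Ndufaf assembly factors called for genotype from 2 to 4. The interaction also went from 0 to 6 calls for other mitochondrially encoded genes and from 0 to 3 for Ndufaf factors.

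Pools 1 and 2 alone and pools 3 and 4 alone were chosen after the data were seen. Pools 1 and 2 gave 2 mitochondrial calls in WT mice, 17 nuclear subunits higher and 0 lower in AppSAA mice against ATV:ISO, 15 higher against 4D9, 3 mitochondrial calls for genotype, and 0 nuclear and 0 mitochondrial interactions. Pools 3 and 4 gave 2 nuclear subunits lower and 2 mitochondrial calls in AppSAA mice against both ATV:ISO and 4D9, 30 nuclear subunits higher for genotype, and 23 nuclear and 2 mitochondrial interactions. Library totals without scaling factors, also chosen later, gave 1 nuclear subunit lower and 1 mitochondrial call in WT mice, 1 lower and 2 mitochondrial calls for genotype, and 6 nuclear and 0 mitochondrial interactions. DESeq2 gave 5 nuclear and 2 mitochondrial interactions. Cells of 1000 to 25000 UMIs gave 3 mitochondrial calls for genotype and 0 mitochondrial interactions, and a fit of the compared groups alone gave 0. DESeq2's size factors in edgeR gave 1 nuclear call in cluster 0 and 2 mitochondrial calls in cluster 3 in AppSAA mice. limma voom, no filter on low counts and no mitochondrial genes moved no count by over 1.5 times. Why the counts moved was not tested.

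Leaving out 1 mouse at a time, nuclear subunits called higher ranged over 32 to 34 in WT mice, 19 to 28 in AppSAA mice against ATV:ISO, 17 to 27 against 4D9 and 15 to 22 for genotype. Nuclear subunits called lower against 4D9 ranged from 1 to 2 (2 without ATV:4D9 mouse 2). Mitochondrial calls ranged from 3 to 5 in WT mice, from 0 to 1 in AppSAA mice against ATV:ISO (1 without ATV:4D9 mouse 2 or 3) and against 4D9 (1 without 4D9 mouse 4 or ATV:4D9 mouse 2), and from 3 to 5 for genotype (3 without WT ATV:ISO 1 or 2 or AppSAA ATV:ISO 3 or 4). Interactions ranged from 1 to 7 (nuclear, 7 without AppSAA ATV:4D9 mouse 1 and 1 without any of 12 others) and 0 to 1 (mitochondrial, 0 without any of 11). Within clusters a pool was left out. In WT mice nuclear calls ranged from 0 to 2 (cluster 0, 0 without pool 2 or 4), 0 to 1 (cluster 2, 0 without pool 1 or 4) and 1 to 6 (cluster 3, 1 without pool 4). In AppSAA mice they ranged from 0 to 11 (cluster 2, 0 without pool 3), 2 to 3 (cluster 3), 2 to 5 (cluster 4, 2 without pool 4) and 10 to 16 (cluster 5, 10 without pool 3). Mitochondrial calls ranged from 0 to 1 in cluster 0 (AppSAA mice) and cluster 3 (each genotype) and from 0 to 2 in cluster 4. For single genes, 4527 repeats were counted as unchanged, 90 gained and 115 lost a call, and 0 turned the direction of a called gene. Genes without a call in the main fit that turned direction were counted among the 4527, so these do not show a kept direction.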
